A study of Saccharomyces cerevisiae with 6 samples.

Results

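Glycerol 3-phosphate is the backbone on which yeast builds its glycerophospholipids and triacylglycerol, and 9 genes for the enzymes that make, oxidize and acylate it were followed here. They were found by systematic name among the 979 yeast genes of an oligonucleotide array: GPD1, GPD2, GUT1, GUT2, SCT1, GPT2, AYR1, SLC1 and ALE1, and all 9 were present. The name GAT2 on the array belonged to YMR136W, a GATA factor gene, and GAT1 to YFL021W, another one, so neither older alias of SCT1 and GPT2 was used. ALE1 carried no symbol on the array and was taken from YOR175C.

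The arrays were read in 1 colour from amplified, biotin-labelled RNA of Saccharomyces cerevisiae. The groups were ACC1 overexpression (3 arrays), in a strain described as wild type with ACC1 overexpressed, and wild type (3 arrays). The strain background, the promoter or plasmid behind the overexpression, the medium and the growth phase are not stated in the labels. Since nothing marks the replicates as separate cultures, the p-values cover the spread between these arrays alone, and that spread may be technical.

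ACC1 encodes acetyl-CoA carboxylase, which makes the malonyl-CoA used to build fatty acids. Acyl chains enter glycerolipids through glycerol 3-phosphate. Cytosolic dehydrogenases make it from dihydroxyacetone phosphate, and glycerol kinase makes it from glycerol. A mitochondrial dehydrogenase turns it back into dihydroxyacetone phosphate and passes the electrons to the respiratory chain. Stepwise acylation then gives lysophosphatidate and phosphatidate, from which phospholipids and storage fat are made. A side route acylates dihydroxyacetone phosphate first and reduces it afterwards.

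Each gene was read by a single probe of 35 bases in 2 spots, and the probes are shown because every value below rests on them. The letters are those of the array files, 5′ to 3′, and the capitals mark the longest run shared with any other probe of the array in the same orientation (the leftmost where there are several).
GPD1: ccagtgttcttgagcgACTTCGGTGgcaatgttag
GPD2: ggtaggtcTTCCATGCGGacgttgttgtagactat
GUT1: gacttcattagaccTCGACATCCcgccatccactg
GUT2: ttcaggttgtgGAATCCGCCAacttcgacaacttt
SCT1: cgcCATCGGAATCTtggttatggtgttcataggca
GPT2: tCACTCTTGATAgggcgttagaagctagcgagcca
AYR1: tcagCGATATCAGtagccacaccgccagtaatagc
SLC1: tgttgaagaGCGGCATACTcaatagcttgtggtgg
ALE1: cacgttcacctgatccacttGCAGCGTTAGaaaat
These shared runs were 9 to 11 bases long. Between the 9 probes themselves the longest was 9 bases, shared by GPT2 and ALE1. The partner enzymes GPD1 and GPD2 shared a shorter run with each other than with GUT1, where the runs were 6 and 5 bases. GPD1 also shared a run of 6 bases with GUT2. Probes were compared with each other only, so binding of other transcripts was not tested.

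The probe names give positions in the coding sequence. GPD1 was read at bases 545 to 579 and AYR1 at 553 to 587. SLC1 was read at 769 to 803, GPD2 at 1252 to 1286 and GUT2 at 1423 to 1457. The probes of GUT1 (1739 to 1773), ALE1 (1767 to 1801), SCT1 (1953 to 1987) and GPT2 (1965 to 1999) lay further along. In the frame these positions set, the reverse complement held a stop codon in 0 of 979 probes, while the letters as printed held one in 441, so the printed strand was read as complementary to the coding strand. Systematic names place GPD1 and SLC1 on the left arm of chromosome IV, GUT2 and AYR1 on the left arm of IX, GPD2 and ALE1 on the left and right arms of XV, GUT1 on the left arm of VIII, SCT1 on the left arm of II and GPT2 on the right arm of XI. No genome build is named for the array, so no genome coordinates are given.

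The arrays themselves differed in brightness. Median yeast spot intensities were 1881, 1796 and 2022 on the ACC1 overexpression arrays, against 3686, 4109 and 4565 on the wild type arrays, a ratio of 0.461. Control probes showed a ratio of 0.538. Quantile normalization removed the difference. Before it, every ACC1 overexpression array was dimmer than every wild type array. The files used name no slide, so hybridization and group cannot be told apart. ACC1, the gene named in the labels, stood at a normalized log2 intensity of 14.08 ± 0.07 in ACC1 overexpression and 11.77 ± 0.10 in wild type (SD, n = 3 each), 4.99-fold higher.

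In limma, 0 of the 9 genes reached an adjusted p under 0.05, where 3.47% of all 979 genes did. At an unadjusted p under 0.05, 1 of the 9 was called, namely GUT1, beside 20.1% of all genes. The 3 arrays of each group lay apart without overlap for the same single gene, beside 24.7% of all genes. The log2 differences of the 9 ran from −0.14 to 0.33, with 5 above and 4 below 0 and a median of 0.04, against a median of −0.01 over all genes. In absolute size their median was 0.10, against 0.08 over all genes. The plot of signal by array gives every value.

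**Figure D1:**
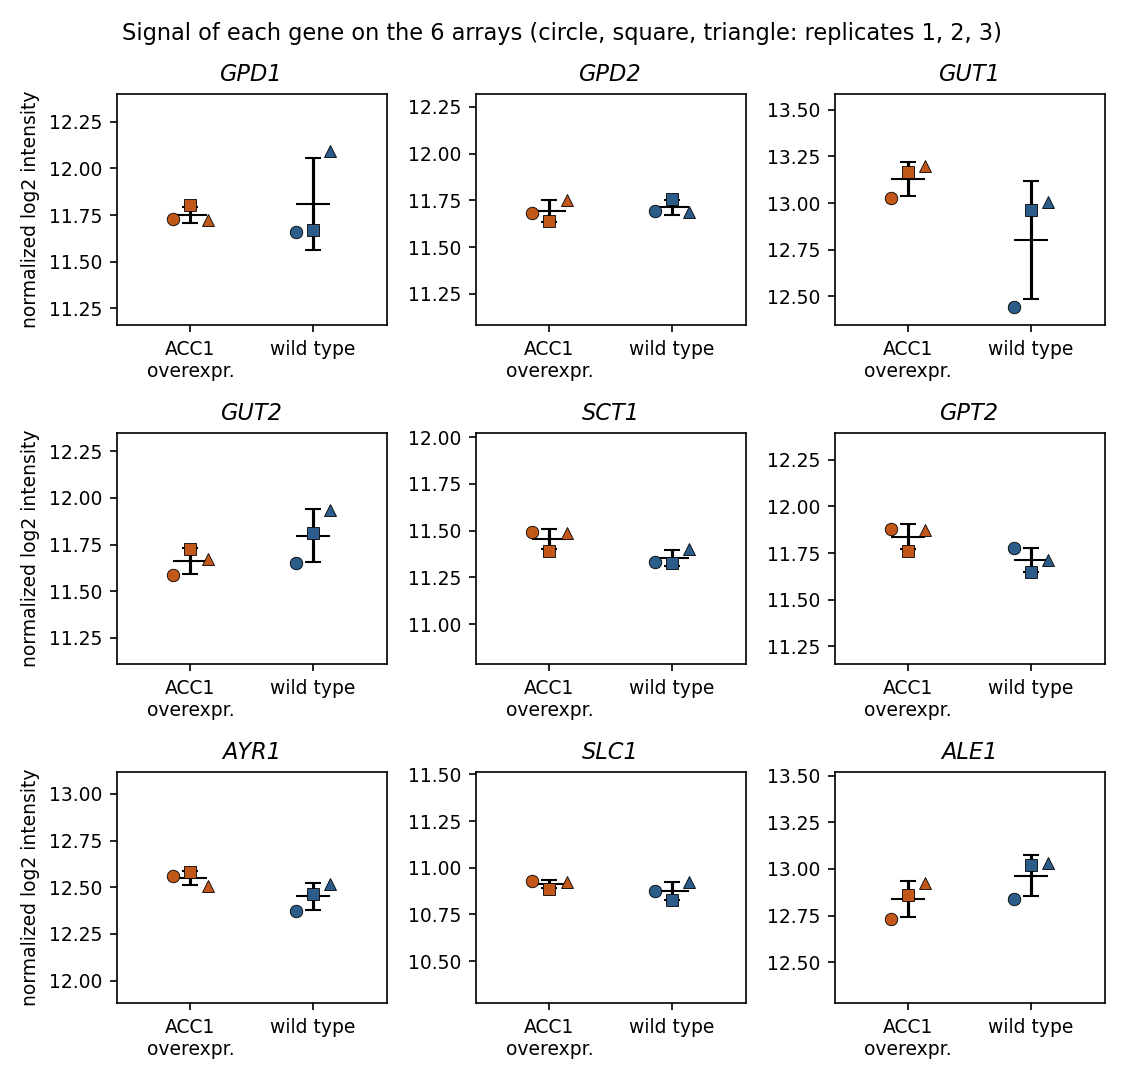
Normalized log2 intensity (vertical axis) of each of the 9 genes on the ACC1 overexpression arrays (left) and the wild type arrays (right). Points are arrays, horizontal marks are group means and bars are the SD (n = 3), and every panel spans the same log2 range. GUT1 is the panel where the groups do not overlap, and wild type replicate 1 of GUT1 (12.44) and wild type replicate 3 of GPD1 (12.10) lie far from the other wild type arrays.

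The cytosolic dehydrogenases reduce dihydroxyacetone phosphate with NADH. GPD1 is the isoform induced by osmotic stress, and GPD2 the one tied to redox balance when oxygen is short. GPD1 had normalized log2 intensities of 11.73, 11.80 and 11.72 in ACC1 overexpression, against 11.66, 11.67 and 12.10 in wild type. The overexpression arrays fell between the lower pair of wild type arrays and wild type replicate 3. That array was high in both of its spots, at 7525 and 7038 before normalization, where the other wild type spots of GPD1 lay between 3715 and 5024. The difference was −0.06 (standard error 0.11, adjusted p = 0.820 in limma), or 0.961-fold with a 95% interval from 0.809 to 1.14. Without wild type replicate 3 it turned to 0.08 (adjusted p = 0.397), and it was −0.13 without wild type replicate 1. Leaving out wild type replicate 2 gave −0.12.

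GPD2 had the smallest absolute difference of the 9. Its values were 11.68, 11.64 and 11.75 in ACC1 overexpression, against 11.69, 11.76 and 11.69 in wild type. The groups overlapped and the difference was −0.02 (standard error 0.06, adjusted p = 0.885 in limma). The 95% interval ran from 0.901-fold to 1.08-fold, so a change of 1.5-fold in the normalized signal lay outside it in both directions.

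Glycerol kinase, encoded by GUT1, brings free glycerol into the pathway, and its gene is known to be repressed by glucose. GUT1 had the largest absolute difference and the smallest p of the 9. Its normalized log2 intensities were 13.03, 13.16 and 13.20 in ACC1 overexpression, against 12.44, 12.96 and 13.01 in wild type. All 3 overexpression arrays were above the highest wild type array, but the gap between 13.03 and 13.01 was narrow and wild type replicate 1 stood well below the other wild type arrays. Both spots of that array were low, at 7222 and 7826 before normalization, where the other wild type spots of GUT1 lay between 11664 and 14514. The mean was 13.13 ± 0.09 in ACC1 overexpression and 12.80 ± 0.31 in wild type (SD, n = 3 each).

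The difference for GUT1 was 0.33 on the log2 scale (standard error 0.14), or 1.25-fold with a 95% interval from 1.01 to 1.55. It did not pass (adjusted p = 0.231 in limma), and it ranked 174 of 979 genes by p. Leaving out wild type replicate 1 gave 0.15 (adjusted p = 0.310), and leaving out wild type replicate 3 gave 0.43 (adjusted p = 0.0692). The SD among the wild type arrays was larger than that of 98.5% of all genes. In ACC1 overexpression it was larger than that of 73.9%.

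The mitochondrial dehydrogenase GUT2 acts on the product of GUT1, and its gene is also known to be repressed by glucose. GUT2 stood on the other side of 0. It had 11.59, 11.73 and 11.67 in ACC1 overexpression, against 11.65, 11.81 and 11.93 in wild type, and only replicate 1 of the overexpression arrays lay below all of the wild type arrays. The difference was −0.14 (standard error 0.08, adjusted p = 0.384 in limma), or 0.910-fold with a 95% interval from 0.803 to 1.03. Without wild type replicate 3 it was −0.07, and without wild type replicate 1 it was −0.21.

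SCT1 and GPT2 encode the acyltransferases that attach the first acyl chain, to glycerol 3-phosphate or to dihydroxyacetone phosphate. SCT1 had 11.49, 11.39 and 11.48 in ACC1 overexpression, against 11.33, 11.33 and 11.40 in wild type. GPT2 had 11.88, 11.76 and 11.87 in ACC1 overexpression, against 11.78, 11.65 and 11.71 in wild type. In both genes replicates 1 and 3 of ACC1 overexpression lay above every wild type array and replicate 2 did not. The difference was 0.10 for SCT1 (standard error 0.06, adjusted p = 0.361) and 0.12 for GPT2 (standard error 0.06, adjusted p = 0.305), neither past the threshold in limma. Their 95% intervals ended at 1.17-fold and 1.20-fold.

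AYR1 encodes the reductase that turns acylated dihydroxyacetone phosphate into lysophosphatidate using NADPH. Its values were 12.56, 12.58 and 12.51 in ACC1 overexpression, against 12.37, 12.46 and 12.52 in wild type. The ranges touched only at the lowest overexpression and the highest wild type array. The difference of 0.10 (standard error 0.06) gave an adjusted p of 0.406 in limma, with a 95% interval from 0.974-fold to 1.17-fold. It was 0.057 without wild type replicate 1 and 0.032 with common-median scaling.

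The second acyl chain, which makes phosphatidate, is added by SLC1 and by ALE1, a member of the membrane-bound O-acyltransferase family that also acylates other lysophospholipids. SLC1 was the dimmest of the 9. Its spots averaged 0.991 to 1.06 times the 95th percentile of the control probes on the ACC1 overexpression arrays, and 0.797 to 1.11 times on the wild type arrays. It exceeded that level on 2 of 3 overexpression arrays and 1 of 3 wild type arrays, while the other 8 genes did so on all 6. Its normalized values were 10.93, 10.89 and 10.93 in ACC1 overexpression, against 10.88, 10.83 and 10.93 in wild type, a difference of 0.04 (standard error 0.05, adjusted p = 0.763 in limma). It was 0.012 without wild type replicate 2, 0.060 without wild type replicate 3 and 0.17 with common-median scaling, in no case past the threshold in limma. At a level this close to the control probes, a change in SLC1 may not be detectable.

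ALE1 was read far above the control probes, at 3.29 to 3.96 times their 95th percentile on the ACC1 overexpression arrays and 3.32 to 5.17 times on the wild type arrays. It had 12.73, 12.86 and 12.92 in ACC1 overexpression, against 12.84, 13.02 and 13.03 in wild type. The groups overlapped, with replicate 1 the lowest in each. The difference was −0.12 (standard error 0.08, adjusted p = 0.401 in limma), or 0.918-fold with a 95% interval from 0.815 to 1.03. It was −0.07 without replicate 1 of ACC1 overexpression, −0.19 without wild type replicate 1 and −0.20 with common-median scaling.

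Of the 8 genes above the control probes on all 6 arrays, 7 had a 95% interval within 1.5-fold in both directions, GUT1 being the exception. Over all 979 genes, dim ones included, the share was 95.7%, so such narrow intervals were not particular to these genes. The interval of SLC1 is left out of this count, since its signal lay near that of the control probes. The labels and file headers do not say whether the scanner values are net of background. If they are not, these folds are too small. Median control probe intensities averaged 1085 on the ACC1 overexpression arrays and 2019 on the wild type arrays. Median yeast spot intensities averaged 1900 and 4120, so the control probes were far from dark. As far as such signal also lies under the yeast spots, the uncorrected folds are too small and their intervals too narrow. How much of it lies there was not tested. After a normexp correction with an offset of 50, GUT2 stood at −0.23, SCT1 and GPT2 at 0.21 each, SLC1 at 0.14 and GPD2 at −0.04. Each of these was more than 1.5 times its uncorrected value. GUT1 at 0.40 (95% interval −0.01 to 0.81), AYR1 at 0.13, GPD1 at −0.08 and ALE1 at −0.15 grew by less. None of the 9 passed then either, with adjusted p from 0.235 to 0.911 in limma. Of the 8 intervals counted above, 7 again lay within 1.5-fold. Over the 16 fits, SCT1, GPT2, AYR1, SLC1 and GUT1 were above 0 in every one and GUT2 and ALE1 below 0 in every one, while GPD1 and GPD2 took both signs. These fits reuse the same arrays. The spot median, the filter on dim genes, the variance moderation and the replicate block could not change a difference.

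**Figure D2:**
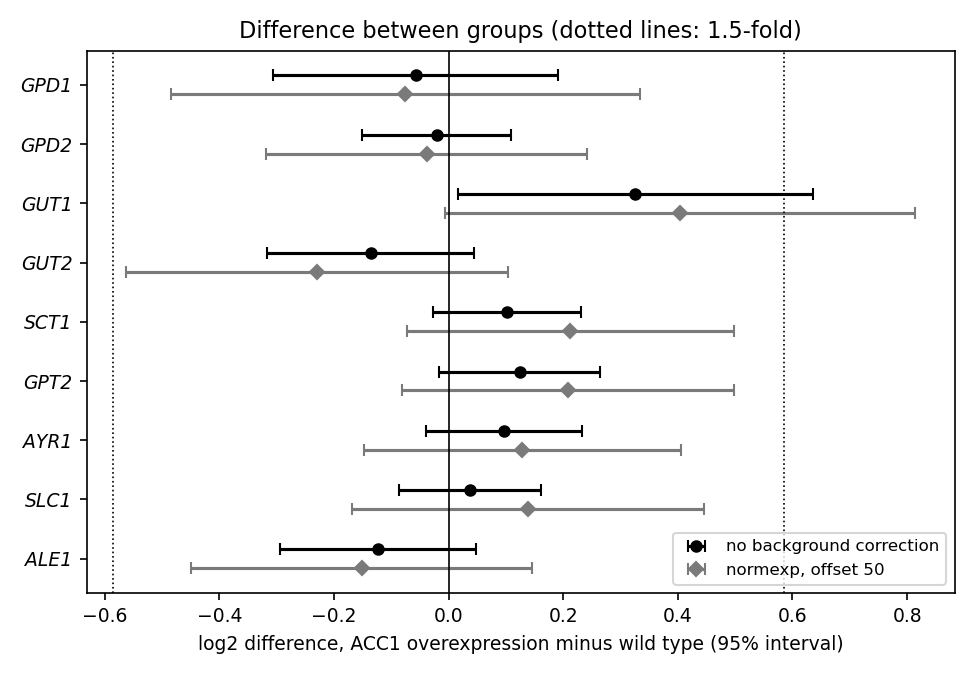
Log2 difference of each gene, ACC1 overexpression minus wild type, with its 95% interval from limma (n = 3 arrays each), without background correction (black circles) and after normexp with an offset of 50 (grey diamonds). The black intervals include 0 for every gene but GUT1 (0.02 to 0.64), and the dotted lines mark 1.5-fold.

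The plot of every gene by its mean signal places the 9 among all genes, none of them past the threshold. Whether the 9 stand apart as a set was not tested. GUT1 and ALE1 were brighter than 93.6% and 93.0% of all genes and AYR1 than 87.1%. SLC1 was brighter than 15.4%, and the other 5 lay between 47.7% and 67.2%. These percentages rank probe signals and not transcript amounts.

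**Figure D3:**
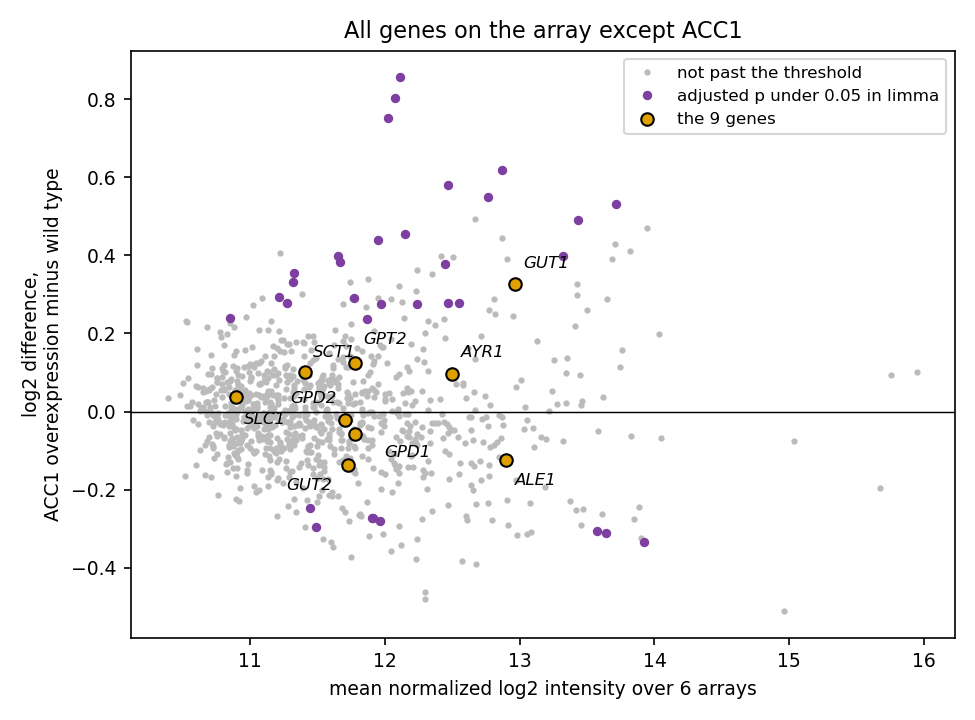
Log2 difference, ACC1 overexpression minus wild type, against mean normalized log2 intensity over the 6 arrays, for all genes but ACC1. Orange points are the 9 genes, purple points passed an adjusted p of 0.05 in limma, and all 9 orange points are outside the purple set.

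Genes that share a step or a route were then compared within each array, where a scaling of the whole array by 1 factor cancels, though quantile normalization and background correction do not. The quantity is the log2 difference between the 2 probes, set to a mean of 0 in wild type, and 4 pairs were tested with an exact two-sided permutation test whose smallest p is 0.1 for 3 against 3 arrays. GUT1 minus GUT2 was 0.43, 0.43 and 0.52 in ACC1 overexpression, against −0.21, 0.14 and 0.07 in wild type. The overexpression arrays lay well above the wild type arrays, by 0.46 on average, with an SD of 0.05 in ACC1 overexpression and 0.19 in wild type. The exact p was 0.1, the smallest this design allows, and 0.4 after adjustment over the 4 pairs. GUT1 relative to GUT2 was thus higher on 3 of 3 overexpression arrays than on any wild type array, in a design that cannot reach 0.05. Without wild type replicate 1 the mean difference was 0.36. Among single genes 24.7% lay apart in this way, and other pairs of genes over the array were not counted.

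For the other pairs the groups overlapped. GPD1 minus GPD2 was −0.05, 0.07 and −0.13 in ACC1 overexpression, against −0.13, −0.18 and 0.31 in wild type (mean difference −0.04, exact permutation p = 0.9). SCT1 minus GPT2 was −0.03, −0.01 and −0.03 in ACC1 overexpression, against −0.09, 0.04 and 0.05 in wild type, a mean difference of −0.02 (exact permutation p = 0.6). These acyltransferase genes for the same step kept within 0.085 of the wild type mean on all 6 arrays. SLC1 minus ALE1 was 0.28, 0.11 and 0.09 in ACC1 overexpression, against 0.13, −0.11 and −0.02 in wild type, a mean difference of 0.16 (exact permutation p = 0.3, adjusted p = 0.6), with SLC1 near the control probes throughout. This pair depended on the processing: the mean difference was 0.37 with common-median scaling, 0.29 after normexp with an offset of 50, 0.31 with none and 0.21 with cyclic loess, each with an exact permutation p of 0.1, the smallest possible. It was 0.10 without replicate 1 of ACC1 overexpression.

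**Figure D4:**
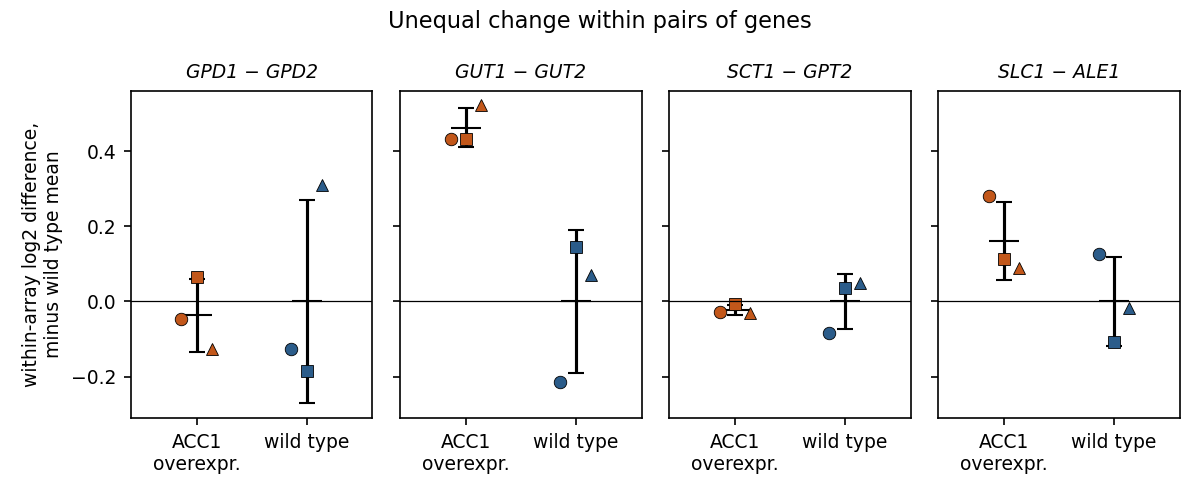
Within-array log2 difference between the probes of each pair (vertical axis), minus its wild type mean, on the ACC1 overexpression arrays (left) and the wild type arrays (right) of each panel. Points are arrays, horizontal marks are means and bars are the SD (n = 3 each), and GUT1 minus GUT2 is the pair in which the groups lie furthest apart.

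The genes around these steps were taken from 4 lists of 45 genes, of which 25 were on the array. FPS1 alone passed, as higher, so that 1 of 25 was called beside 3.47% of all genes. At an unadjusted p under 0.05 the count was 10 of 25, beside 20.1% of all genes. FPS1 encodes the plasma membrane channel through which glycerol leaves the cell. It had 12.33, 12.35 and 12.46 in ACC1 overexpression, against 12.12, 12.06 and 12.13 in wild type, with every overexpression array above every wild type array. The difference was 0.28 (standard error 0.06, adjusted p = 0.0413 in limma). Over the alternatives its adjusted p ran from 0.00385 to 0.20. The call was lost with common-median scaling (0.0756), with cyclic loess (0.0621), with trended, robust variances (0.0758), after normexp with an offset of 50 (0.116) or with none (0.128), and without any single array other than wild type replicate 3.

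Glycerol and dihydroxyacetone phosphate genes made up 10 of the 25 and had a median log2 difference of 0.03. Of the 10, 5 had an unadjusted p under 0.05 in limma, beside 20.1% of all genes. Of those that did not pass, FBA1, the aldolase that yields dihydroxyacetone phosphate, stood at 0.40 (adjusted p = 0.158 in limma) with a wild type SD of 0.32. Its values were 12.62, 12.53 and 12.70 in ACC1 overexpression, against 12.07, 12.00 and 12.59 in wild type. FBA1 passed without wild type replicate 3 (0.58, adjusted p = 0.00138) and with array weights (0.53, adjusted p = 0.00551). Those fits called 123 and 176 of all 979 genes, against 34 in the main fit. The array weights were largest for wild type replicate 2, at 3.60, against 0.439 to 1.45 for the other arrays. GPP1, a glycerol 3-phosphate phosphatase, stood at 0.17 (adjusted p = 0.214), and GUP1 at −0.22 (adjusted p = 0.165, or 0.0482 without wild type replicate 3 and 0.0450 with array weights). GCY1 stood at −0.13 (adjusted p = 0.238 in limma, or 0.0302 with array weights). FBA1, GPP1, GUP1 and GCY1 were named after their values were seen.

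For phosphatidate use and phospholipase D, 5 genes were measured and none passed in limma. An unadjusted p under 0.05 was reached by 3 of the 5, beside 20.1% of all genes, namely CDS1, SPO14 and LPP1. LPP1 stood at 0.14 (adjusted p = 0.227 in limma). It was above the control probes on 3 of 3 ACC1 overexpression arrays and 2 of 3 wild type arrays. LPP1 passed with common-median scaling, and it was named after its values were seen. CDS1, which makes CDP-diacylglycerol from phosphatidate, was above the control probes on 0 of 3 ACC1 overexpression arrays and 1 of 3 wild type arrays, and SPO14, the phospholipase D that makes phosphatidate from phosphatidylcholine, on 2 of 3 ACC1 overexpression arrays and 0 of 3 wild type arrays, so no fold is given for either. SPO14 nevertheless passed after normexp with an offset of 50 (adjusted p = 0.0411) or with none (0.0417), with common-median scaling (0.0217) and with array weights (0.0217). In this order, these fits called 38, 31, 74 and 176 of all 979 genes. Among the other acyltransferases of lysophospholipids, 3 were measured and none passed, with TAZ1 at −0.13 (adjusted p = 0.324) and TGL5, above the control probes on 1 of 3 wild type arrays, at 0.07 (adjusted p = 0.554), and 0 had an unadjusted p under 0.05.

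Of 7 measured regulators none passed in limma and 2 had an unadjusted p under 0.05, a share near the 20.1% of all genes. RSF2, a zinc finger factor linked to growth on glycerol, stood at 0.21 (adjusted p = 0.127, or 0.0283 with common-median scaling and 0.0239 with array weights) and was above the control probes on 2 of 3 wild type arrays. HOT1, a factor that induces glycerol synthesis genes after osmotic stress, stood at −0.20 (adjusted p = 0.209 in limma) and passed with array weights. Common-median scaling called 74 of all 979 genes and array weights 176. INO2 and OPI1, regulators of phospholipid genes that were named after their values were seen, exceeded the control probes on 0 of 6 arrays.

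The 3 genes whose values followed GUT1 most closely over the 6 arrays, leaving out the other 8 genes, were KTR1, FBP1 and TWF1, with Pearson's r of 0.987, 0.967 and 0.965. This describes 6 arrays that all 4 genes share, with wild type replicate 1 the lowest for each, and 28 genes had an r over 0.9. FBP1, the gluconeogenic fructose-bisphosphatase, had 12.35, 12.47 and 12.48 in ACC1 overexpression, against 12.05, 12.26 and 12.29 in wild type, with replicate 1 again the lowest array of each group. The difference for FBP1 was 0.23 (adjusted p = 0.142 in limma). KTR1, a mannosyltransferase gene, stood at 0.14 (adjusted p = 0.307), and TWF1, the twinfilin gene, exceeded the control probes on 0 of 6 arrays.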

How the data were processed

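RNA from 6 samples was read on 6 arrays. Per the file headers, the authors deposited 1 median foreground intensity per spot, 2240 spots per array, with no background column. The labels and headers do not name the image software. The authors' deposited value table holds a score for 906 rows per array with unstated scale and centring (column medians −0.15 to −0.06). Matched by row number, it did not track the scanner intensities (r from −0.052 to −0.035), so it was not used further.

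Intensities were taken to log2, quantile normalized over the yeast spots without the 26 control probes, and averaged over the spots of a probe. A probe counted as above background when its mean intensity was higher than the control probes' 95th percentile of that array (624 to 890 genes). Gene symbols came from the R64 table, which held all 979 systematic names. The groups were compared with limma 3.58.1 in R 4.3.3 (lmFit, eBayes, default settings) by two-sided tests, adjusted by Benjamini-Hochberg across the 979 genes, with 0.05 as the threshold, and pairs of genes with exact permutation tests in scipy 1.17.1. The number of arrays limits the precision. The 9 genes and the neighbour lists were chosen with earlier results of these data known. Named genes were the 9, ACC1, per list those past the threshold or else the 2 of smallest p, and the 3 genes most like the member of smallest p. Chosen outside this rule, once values were known, were FBA1, GPP1, GUP1, GCY1, LPP1, INO2 and OPI1.

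Alternatives covered the normalization, background correction, spot averaging, dim genes, variance moderation, array weights, a replicate block, thresholds and each array left out in turn.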

Additional observations from a re-analysis of the deposited data

How the results depend on the processing

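Of 135 values of the 9 genes under alternatives, 36 could not change, since the spot median, the filter on dim genes, the variance moderation and the replicate block leave the difference as it is. Of the other 99, 95 kept their sign and 4 changed it. Over all 135, 1 gained a call. GPD1, at −0.06, was 0.043 with array weights, and leaving out each array gave −0.13 to 0.083. For GPD2 leaving out each array gave −0.052 to 0.0056. Both were uncalled throughout. The replicate block gave 1 of the 9 past the threshold, GUT1 at 0.33 (adjusted p = 0.0216), in a fit that called 121 of 979 genes. Deviations from the group mean correlated between arrays of the same number with r of 0.467, −0.021 and 0.385. Between arrays of different numbers r ran from −0.498 to 0.086, so replicates 1 and 3 were most like the array of their own number. The series text says that the groups were compared 3 times, which may mean pairs. The labels name no pairs and the main fit has none, so whether the arrays were paired stays unsettled. An unadjusted p of 0.05 also gave 1 of 9. The count of 34 genes over the whole array was 74 with a common median, 176 with array weights, 121 with the replicate block, 5 at an adjusted p of 0.01, 1 at 2-fold or more, and 4 to 123 on leaving out each array. The 1 neighbour gene past the threshold became 4 with a common median (FPS1 not among them), 0 with cyclic loess and 0 with trended, robust variances. The count was 7 with array weights, 4 with the replicate block (RSF2, FBA1, SPO14 and FPS1), and 0 to 3 on leaving out each array. After normexp, with or without the offset, the 1 gene was SPO14 in place of FPS1. GPD1 minus GPD2 lay between −0.13 and 0.12 on leaving out each array. SCT1 minus GPT2, −0.02, was 0.0046 after normexp with an offset of 50, 0.0083 with none, 0.024 with a common median, and −0.065 to 0.00011 on leaving out each array. SLC1 minus ALE1 lay between 0.10 and 0.23 on leaving out each array. GUT1 minus GUT2 kept its sign in all 12 alternatives, though the spot median and the replicate block leave the difference as it is. It lay between 0.36 and 0.54 on leaving out each array. With the replicate block its exact sign-flip p was 0.25, the smallest 3 pairs allow. The causes were not tested. No slide block was tried, because the files used name no slide. Signal near the control probes limits SLC1.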
